A study of Mus musculus with 4 samples.

Results

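The growth hormone, STAT5 and IGF1 axis of liver was described through 10 genes, chosen by name for their roles in it with earlier results of these data known, and each was found as a single row among the 21959 gene IDs of the deposited table. They are the receptor genes Ghr and Prlr, the transcription factor genes Stat5a and Stat5b, the feedback genes Socs2 and Cish, the output genes Igf1 and Igfals, and the repressor genes Bcl6 and Cux2. RNA was sequenced from 4 mouse livers, 2 given baicalein and 2 given saline by label. All 4 carried the genotype label WT and shared the disease model, acute-on-chronic liver failure (ACLF), in which an acute insult strikes a chronically damaged liver. Baicalein is a flavone of plant origin. The labels state neither dose nor duration, age, sex or hour of collection. They number the livers without stating whether separate animals gave them, and p-values reflect how far these livers differ from one another, which may be technical variation.

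Growth hormone binds its receptor on hepatocytes, where the kinase JAK2 then phosphorylates STAT5A and STAT5B, which enter the nucleus as dimers and drive Igf1, Igfals, Socs2 and Cish. In mice the pituitary secretes growth hormone in separated pulses in males and more continuously in females, and liver turns this pattern into sex-biased gene expression. BCL6, a repressor more abundant in male liver, holds down female-biased genes, and CUX2, a repressor largely restricted to female liver, holds down male-biased genes.

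Prlr, Socs2 and Cux2 were higher in the baicalein livers and Stat5a, Stat5b, Cish and Bcl6 were lower, at an adjusted p below 0.05 (edgeR quasi-likelihood test, Benjamini-Hochberg over all 12657 genes tested). Ghr, Igf1 and Igfals did not pass. All 10 genes cleared the filter on low counts. The 3 higher members stand beside a background of 7.65% of all tested genes called higher, and the 4 lower members beside 7.90% called lower (15.5% in either direction). Over the members the median log2 fold change was -0.09 and its median absolute value 0.59, against 0.01 and 0.26 over all tested genes. In CPM (counts scaled to the normalised library size), 4 members were higher and 5 lower without overlap between the groups, where 29.7% and 29.5% of all tested genes were, 59.2% together. The lower members numbered 1 without baicalein 1 or baicalein 2 and 2 without saline 1 or saline 2, and the higher ones 2 without baicalein 1.

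**Figure D1:**
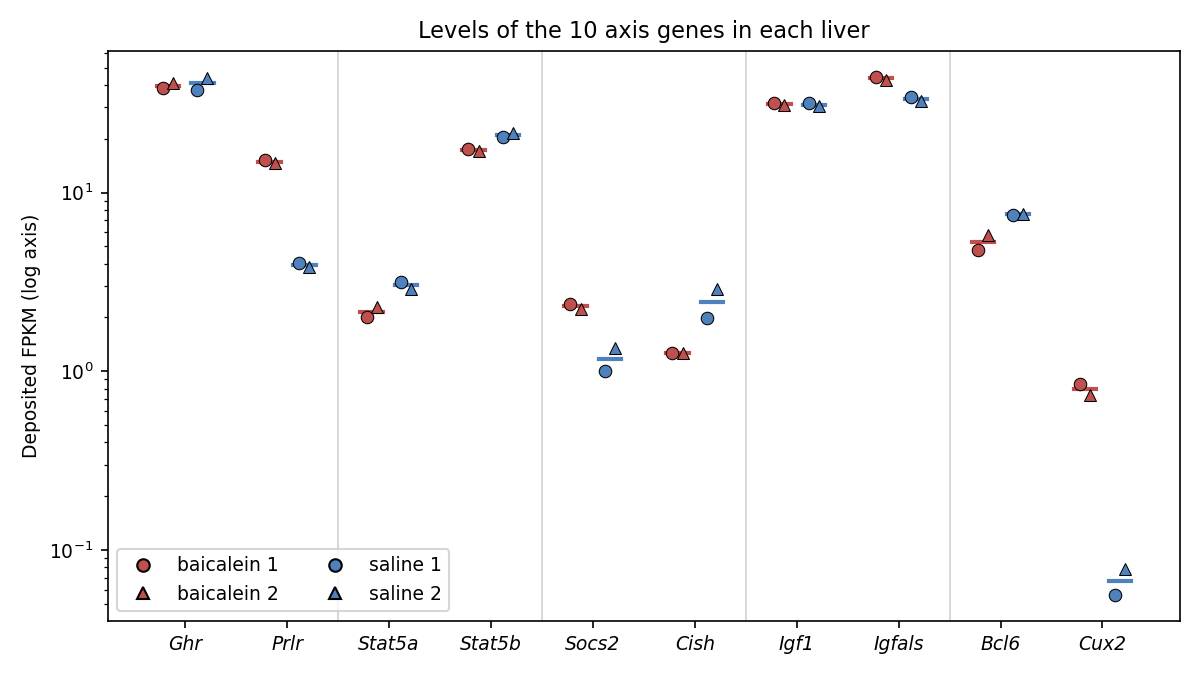
Deposited FPKM (log axis) of the 10 genes in each liver, ordered by role, with baicalein livers in red to the left of saline livers in blue; short bars are means of 2 livers. Prlr and Cux2 lie far apart between the groups, while Igf1 lies between 30.3 and 31.8 FPKM in all 4 livers.

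The livers also differed in ways that touch every comparison here. Their totals lay between 13976440 and 18731616 counts. Livers of the same group differed beyond sampling noise, with a chi-square per degree of freedom of 18.7 for baicalein and 23.4 for saline. The Y-linked genes Ddx3y, Kdm5d, Eif2s3y and Uty summed to 2 and 1 counts in the baicalein livers, against 820 and 836 in the saline livers, and all 11 listed clock genes were called, 8 higher and 3 lower. By Y-linked RNA the groups appear to differ in sex, which the labels do not give. Treatment cannot be told apart from this difference or, with no hour of collection in the labels, from that in clock genes. The 14 skeletal muscle markers crossed the groups, at 1.17 and 2037 CPM in baicalein 1 and 2, against 6754 and 1.46 CPM in saline 1 and 2, and 9 of them had no count in baicalein 1 and 10 none in saline 2. Bile duct markers reached 165 CPM in baicalein 2 and at most 22.6 CPM elsewhere. The 10 hepatocyte markers were present in every liver and summed to 127264 and 108903 CPM in the baicalein livers, against 92089 and 87846 CPM in the saline livers, most of it Alb (87778 and 74261, against 55863 and 53157 CPM). They shared no direction, with 3 higher, 3 lower and a median log2 fold change of -0.08, and 0 were called without saline 1 or without saline 2.

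**Figure D2:**
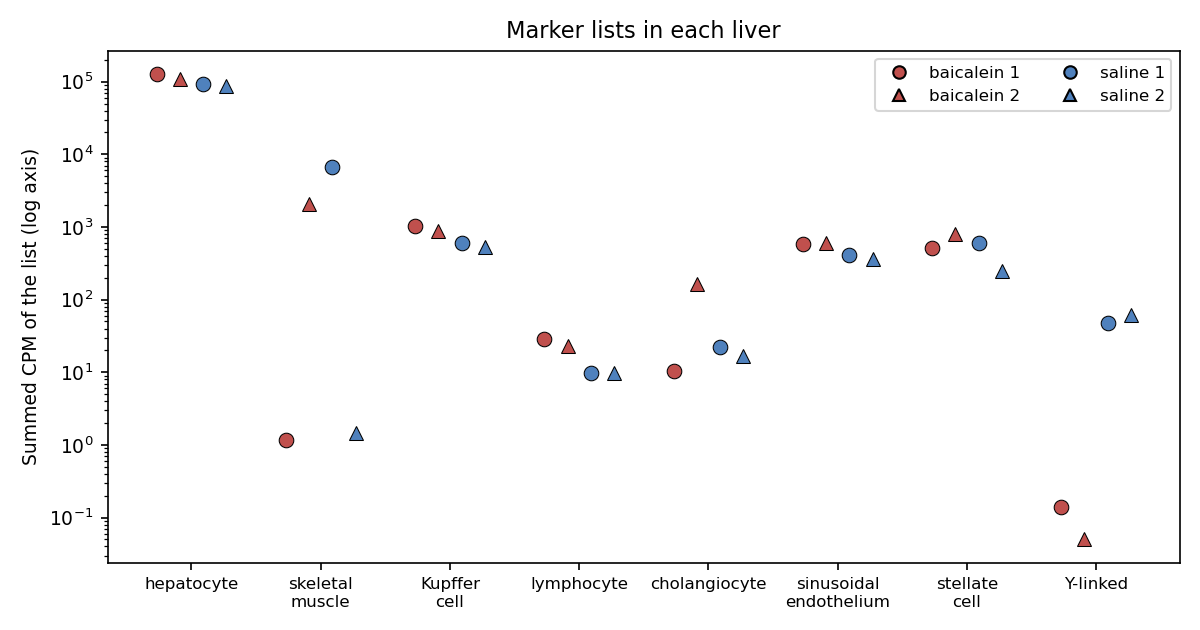
Summed CPM (log axis) of each marker list in each liver, with baicalein livers left of saline livers. Muscle markers reach 2037 CPM in baicalein 2 and 6754 CPM in saline 1 and lie below 2 CPM in the other livers, while the Y-linked genes separate the groups.

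The receptor genes stood apart from each other. Ghr, encoding the growth hormone receptor (ENSMUSG00000055737, chromosome 15, 3347242 to 3612974, minus strand in the deposited table), was at 352 and 346 CPM in the baicalein livers and 353 and 406 CPM in the saline livers. Saline 2 was highest and the other 3 livers lay close together. In CPM the baicalein livers were just below both saline livers, whereas in FPKM the groups overlapped, and the difference did not pass (log2 fold change -0.12, SE 0.11, adjusted p = 0.512, 95% interval -0.37 to 0.12). Prlr (ENSMUSG00000005268, chromosome 15, 10177324 to 10349266, plus strand) encodes the prolactin receptor, which also signals through STAT5 and is female-biased in mouse liver. It was at 237 and 209 CPM in the baicalein livers, against 64.5 and 60.0 CPM in the saline livers. Both baicalein livers were far above both saline livers, and the means were 223 ± 20.0 and 62.2 ± 3.25 CPM (SD, n = 2 livers in each group). Prlr rose 3.58-fold (log2 fold change 1.84, SE 0.11, adjusted p = 1.65e-05), a larger absolute log2 change than in 97.2% of tested genes. The ratio of Prlr to Ghr FPKM was 0.398 and 0.357 in the baicalein livers, against 0.108 and 0.0871 in the saline livers. The protein-coding gene Gm21973 overlaps Prlr on the same strand by 23801 bases in GENCODE M21. It had 0 counts in each liver, and how reads in the shared stretch were counted is not known. In bulk liver, fewer cells of a type and less RNA per cell cannot be told apart. The table's build is not the GRCm38 of the promoter windows given further on, so its positions are not comparable with them.

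Stat5a and Stat5b encode near-identical proteins from neighbouring genes, so reads that fit both make their values uncertain. Stat5a (ENSMUSG00000004043, chromosome 11, 100750177 to 100775995, plus strand) was at 14.5 and 15.3 CPM in the baicalein livers, against 23.5 and 21.0 CPM in the saline livers. The groups did not overlap and Stat5a fell (log2 fold change -0.58, SE 0.12, adjusted p = 0.0154). Stat5b (ENSMUSG00000020919, chromosome 11, 100671557 to 100741550, minus strand), the form that carries most of the growth hormone signal in liver, was at 99.2 and 88.0 CPM in the baicalein livers, against 118 and 121 CPM in the saline livers. Its groups did not overlap either, and it had the smallest change of the 7 called members (log2 fold change -0.35, SE 0.10, adjusted p = 0.0483). Per length, the ratio of Stat5b to Stat5a was 8.80 and 7.42 in the baicalein livers, against 6.48 and 7.39 in the saline livers, a log2 difference of 0.22 (exact two-sided permutation p = 0.333, the smallest that 2 against 2 livers allow, here and for each ratio that follows). Stat5a was not called without baicalein 1, baicalein 2 or saline 1 (adjusted p up to 0.0954), nor Stat5b without any 1 of the 4 livers (up to 0.246). Stat5a overlaps Stat3 on the other strand by 72 bases in GENCODE M21, and the sources used here do not say whether strand was used in counting.

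The feedback genes moved in opposite directions. Socs2 (ENSMUSG00000020027, chromosome 10, 95221224 to 95253042, minus strand), whose product limits growth hormone signalling, was at 23.2 and 19.8 CPM in the baicalein livers, against 9.93 and 13.1 CPM in the saline livers. The lower baicalein liver was above the higher saline liver, and Socs2 rose 1.87-fold (log2 fold change 0.90, SE 0.17, adjusted p = 0.00726). Cish (ENSMUSG00000032578, chromosome 9, 107173225 to 107179983, plus strand) encodes a relative of SOCS2 that binds activated cytokine receptors. It was at 8.25 and 7.63 CPM in the baicalein livers, against 13.3 and 18.9 CPM in the saline livers. The baicalein livers nearly coincided below both saline livers, which were spread, and Cish fell (log2 fold change -1.02, SE 0.19, adjusted p = 0.00812). Within each liver the ratio of Socs2 to Cish FPKM was 1.89 and 1.74 in the baicalein livers, against 0.504 and 0.465 in the saline livers. Socs2 thus exceeded Cish per length in both baicalein livers and was below it in both saline livers (log2 difference 1.91). Socs2 was not called without baicalein 1 (adjusted p = 0.0838), nor Cish without baicalein 1, baicalein 2 or saline 2 (up to 0.0946). Genes on the other strand overlap Cish in GENCODE M21. Whether strand was used in counting is not known, so their reads may be mixed with its own.

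The output genes did not pass. Igf1 (ENSMUSG00000020053, chromosome 10, 87694127 to 87772904, plus strand), whose product is the circulating growth factor of the axis, was at 320 and 285 CPM in the baicalein livers and 327 and 306 CPM in the saline livers. The groups overlapped (log2 fold change -0.07, SE 0.11, adjusted p = 0.731, 95% interval -0.31 to 0.17). Igfals (ENSMUSG00000046070, chromosome 17, 25084971 to 25100984, plus strand) encodes the acid-labile subunit that holds IGF1 in a stable complex in blood. It was at 143 and 126 CPM in the baicalein livers and 113 and 106 CPM in the saline livers. Both baicalein livers were above both saline livers, but the difference missed the threshold (log2 fold change 0.30, SE 0.10, adjusted p = 0.0899, 95% interval 0.06 to 0.54). Per length, the ratio of Igf1 to Igfals was 0.714 and 0.722 in the baicalein livers, against 0.926 and 0.928 in the saline livers, nearly the same within each group (log2 difference -0.37). Macrophages also make Igf1, and the 10 Kupffer cell markers, 9 of them called higher, summed to 1026 and 879 CPM in the baicalein livers, against 607 and 529 CPM in the saline livers. Their part in the Igf1 level was not tested, and 5 of them were called without baicalein 1 or without saline 2. The antisense gene Igf1os overlaps Igf1, with the same limit on strand.

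The repressor genes showed the widest contrast. Cux2 (ENSMUSG00000042589, chromosome 5, 121994429 to 122188165, minus strand) had 126 and 139 counts in the baicalein livers, against 10 and 11 counts in the saline livers. In CPM this was 8.66 and 6.94 CPM in the baicalein livers, against 0.588 and 0.802 CPM in the saline livers. The groups were far apart, and Cux2 rose 11.2-fold (log2 fold change 3.48, SE 0.33, adjusted p = 2.37e-04), the largest change of the 10 and above 99.2% of tested genes in absolute size. Bcl6 (ENSMUSG00000022508, chromosome 16, 23783802 to 23807602, minus strand) was at 32.5 and 36.2 CPM in the baicalein livers, against 52.4 and 52.1 CPM in the saline livers. The saline livers nearly coincided above both baicalein livers, and Bcl6 fell (log2 fold change -0.60, SE 0.10, adjusted p = 0.00352). The ratio of Cux2 to Bcl6 FPKM was 0.177 and 0.127 in the baicalein livers, against 0.00745 and 0.0102 in the saline livers (log2 difference 4.10). Lymphocytes also make Bcl6, and their 10 markers, 2 of them called higher, summed to 28.3 and 23.2 CPM in the baicalein livers, against 9.76 and 9.92 CPM in the saline livers. Their part in the Bcl6 level was not tested, and the lymphocyte count was 1 without any 1 liver. The calls of Prlr, Cux2 and Bcl6 held under all 10 tested alternatives, with adjusted p up to 9.22e-04, 0.00934 and 0.0340. Antisense genes overlap Cux2 in GENCODE M21, again with strand not known. Gm37419 overlaps Bcl6 by 114 bases on the other strand and had 0 counts in each liver.

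Livers with and without muscle RNA were also compared as pairs in CPM. The groups of each called member did not overlap in CPM. Any such pair therefore carries the sign of the call, and the shared sign tells nothing about muscle. Baicalein 1 over saline 2, the livers with almost none, gave log2 differences of 1.98 for Prlr, 3.43 for Cux2, 0.83 for Socs2, -0.68 for Bcl6, -1.19 for Cish, -0.53 for Stat5a and -0.28 for Stat5b. Baicalein 2 over saline 1, the livers with muscle markers, gave 1.69, 3.56, 0.99, -0.54, -0.80, -0.62 and -0.42 for the same genes. Igf1 took opposite signs in the pairs, 0.06 and -0.20. Each pair holds 1 liver a group and carries no test.

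**Figure D3:**
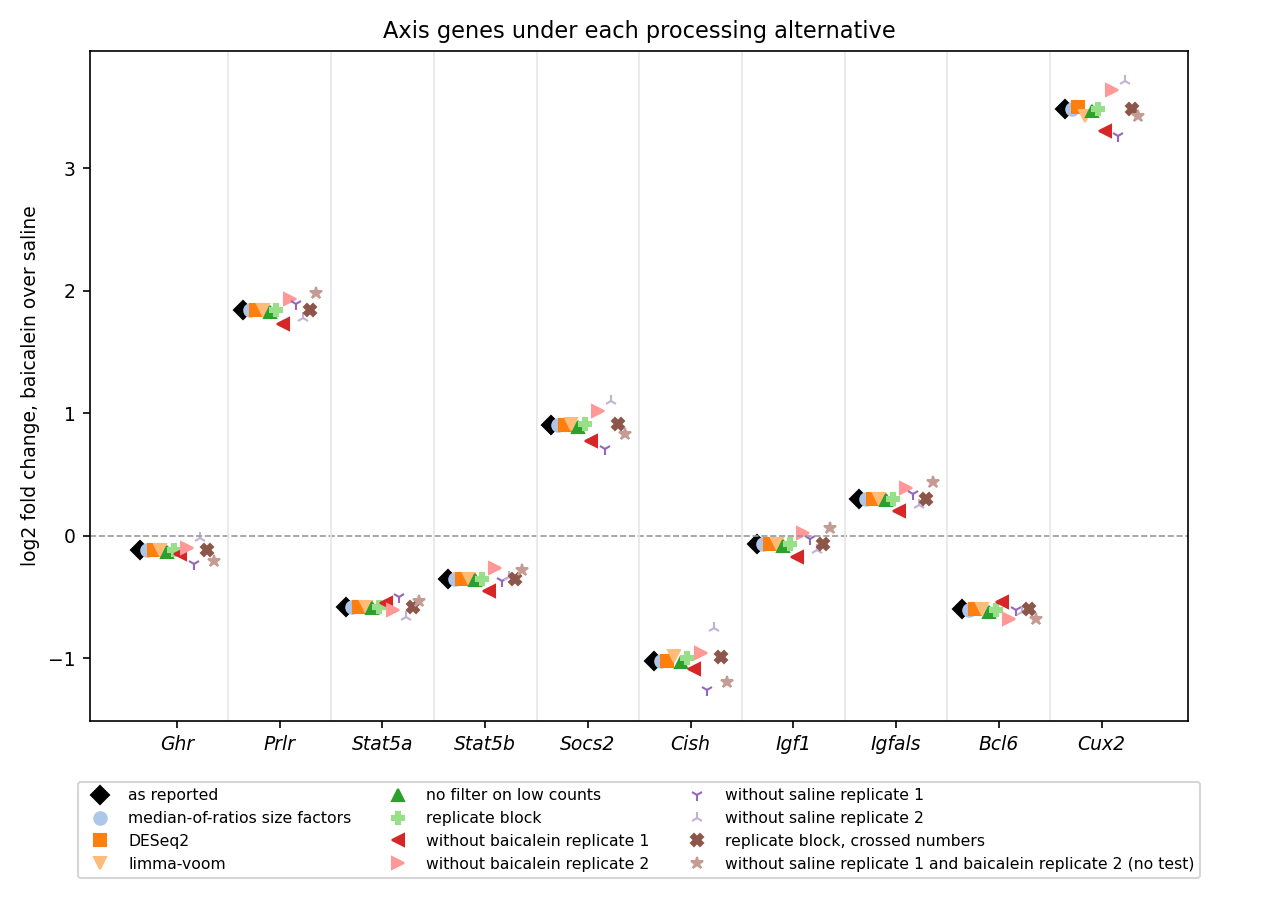
Log2 fold change (baicalein over saline) of each axis gene as reported (black diamonds) and under every other setting tried. Points of each called gene stay on 1 side of 0, and those of Igf1 lie on both sides, from -0.17 to 0.06.

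Levels were ordered per length. In the baicalein livers Igfals led at 43.6 ± 1.35 FPKM, followed by Ghr at 39.6 ± 1.80, Igf1 at 31.3 ± 0.709, Stat5b at 17.3 ± 0.445, Prlr at 14.9 ± 0.461 and Bcl6 at 5.28 ± 0.704 FPKM (SD, n = 2). Socs2 at 2.31 ± 0.125 and Stat5a at 2.15 ± 0.203 FPKM overlapped, and Cish at 1.27 ± 0.00453 and Cux2 at 0.791 ± 0.0780 FPKM were lowest. In the saline livers the order was Ghr at 40.8 ± 4.60 FPKM, Igfals at 33.5 ± 1.17, Igf1 at 31.1 ± 1.03, Stat5b at 20.9 ± 0.587, Bcl6 at 7.58 ± 0.0648 and Prlr at 3.94 ± 0.153 FPKM (SD, n = 2). Stat5a at 3.03 ± 0.195 and Cish at 2.44 ± 0.633 FPKM followed, a difference within the spread of Cish, and Socs2 at 1.17 ± 0.241 and Cux2 at 0.0671 ± 0.0155 FPKM were lowest. Per length, Prlr stood above Bcl6 in the baicalein livers and below it in the saline livers. In CPM, Prlr was above Bcl6 in the saline livers too (64.5 and 60.0, against 52.4 and 52.1 CPM). Igfals was likewise below Ghr in CPM in the baicalein livers (means 135 and 349 CPM). The order thus depends on the gene lengths in the deposited table, such as 15339 bases for Prlr and 6700 for Bcl6.

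STAT5 dimers bind the palindromic core TTCNNNGAA, which BCL6 can also bind, so the 250 bases before each annotated start of the axis genes were searched for it in RefSeq sequence (GRCm38.p6). The core is its own reverse complement, so both strands are searched at once. There were 18 windows for 9 of the genes, with Socs2 named only. The core was in 5 of 18 windows (27.8%), against 2306 of 32851 windows of that length (7.02%). Of those 5 windows, 2 belong to Bcl6, 2 to Igfals and 1 to Prlr. Bcl6 window 2 holds the core 3 times, as 9 of all windows do at least (0.0274%). The windows of the called genes Bcl6 and Prlr are shown because they hold the core, 5′ to 3′ on the strand of the gene with the core in capitals. They lie at chr16:23988853-23989102 and chr16:23981284-23981533 on the minus strand and at chr15:10223656-10223905 on the plus strand.
Bcl6 window 1: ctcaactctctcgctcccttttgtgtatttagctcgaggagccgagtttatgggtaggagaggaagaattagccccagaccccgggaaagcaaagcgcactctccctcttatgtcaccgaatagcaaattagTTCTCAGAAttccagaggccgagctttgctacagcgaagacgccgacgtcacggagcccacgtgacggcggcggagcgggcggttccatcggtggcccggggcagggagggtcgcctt
Bcl6 window 2: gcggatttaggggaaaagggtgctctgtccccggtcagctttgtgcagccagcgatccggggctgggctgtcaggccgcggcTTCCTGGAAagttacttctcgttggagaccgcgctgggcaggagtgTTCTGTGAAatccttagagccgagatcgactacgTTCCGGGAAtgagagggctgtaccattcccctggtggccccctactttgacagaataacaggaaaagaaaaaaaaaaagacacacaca
Prlr window 2: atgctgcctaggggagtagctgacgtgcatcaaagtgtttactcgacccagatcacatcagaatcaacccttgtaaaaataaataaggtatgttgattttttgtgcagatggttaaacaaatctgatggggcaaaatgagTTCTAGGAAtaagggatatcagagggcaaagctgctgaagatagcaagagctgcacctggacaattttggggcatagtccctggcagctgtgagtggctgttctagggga
In Bcl6 window 1 the core reads TTCTCAGAA and begins 118 bases before the start. In Bcl6 window 2, TTCCTGGAA, TTCTGTGAA and TTCCGGGAA begin 168, 122 and 88 bases before it, and in the Prlr window TTCTAGGAA begins 110 bases before it. The core thus stands before Bcl6, which fell, before Prlr, which rose, and before Igfals, which did not pass. Prlr windows 1 and 3 and Igfals window 3 do not hold it. A match is a run of letters and not a measured site. The windows of Ghr, Stat5a, Stat5b, Cish, Igf1 and Cux2 do not hold these letters.

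Other genes of receptor signalling passed in both directions. Of 26 listed, 25 were tested, with 4 higher and 2 lower, beside 7.65% and 7.90% of all tested genes, and a median log2 fold change of 0.05. Sirpa, encoding a receptor that recruits SHP phosphatases and that macrophages also express, was at 56.9 and 46.9 CPM in the baicalein livers, against 31.2 and 31.8 CPM in the saline livers, and it rose (log2 fold change 0.72, SE 0.11, adjusted p = 0.00324). Socs3, a feedback inhibitor induced by interleukin 6 through STAT3, was at 13.9 and 11.6 CPM in the baicalein livers, against 19.5 and 24.4 CPM in the saline livers, and it fell (log2 fold change -0.78, SE 0.16, adjusted p = 0.0114). The other calls were small except that of Src, a kinase gene that rose (log2 fold change 1.13, SE 0.28, adjusted p = 0.0278). Cbl, a ubiquitin ligase gene, rose by 0.39 (SE 0.11) on the log2 scale and Ptpn6, which encodes the phosphatase SHP1, by 0.42 (SE 0.12), and Socs7 changed by -0.45 (SE 0.12). Jak2, the receptor's kinase, did not pass (log2 fold change 0.13, SE 0.17, adjusted p = 0.668). Sirpa alone of these 6 kept its call with each liver left out. Socs3 lost it without baicalein 2 or saline 2 (adjusted p up to 0.104), Src also without saline 1 (up to 0.232), and Cbl, Ptpn6 and Socs7 without any 1 liver (up to 0.207) and with DESeq2. With a liver left out, 1 or 2 genes of the list were higher and at most 1 lower.

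**Figure D4:**
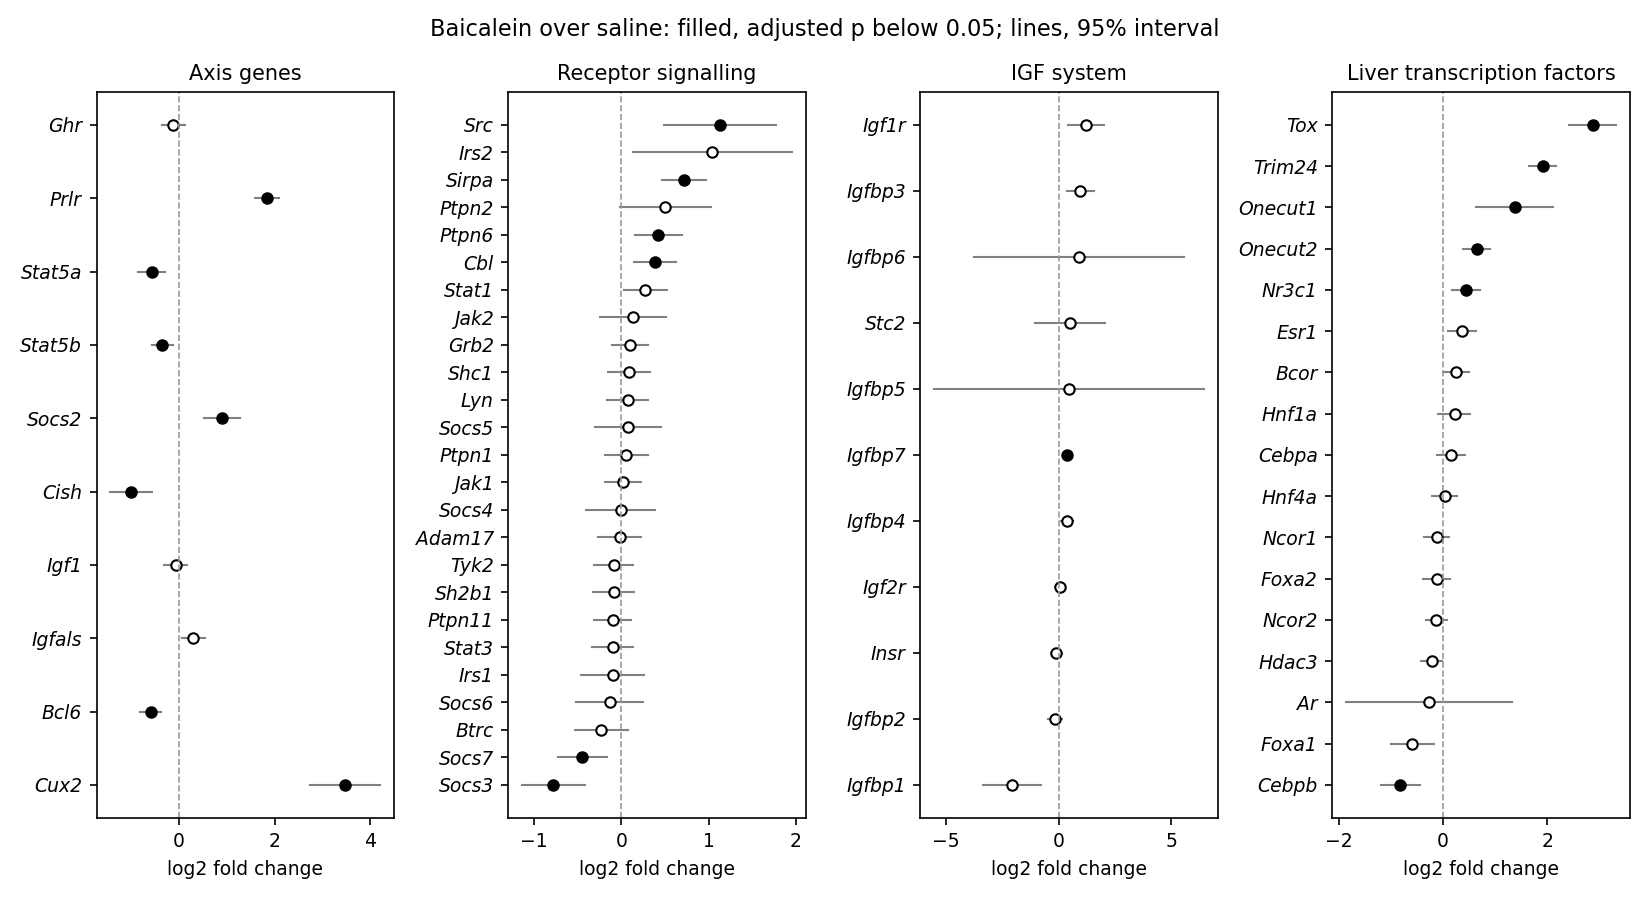
Log2 fold change of baicalein over saline for the axis genes and the tested genes of 3 further lists, each panel on its own horizontal scale. Filled points passed an adjusted p of 0.05 and lines are 95% intervals not adjusted for the number of genes; Cux2 at 3.48 and Tox at 2.88 lie furthest to the right in their panels.

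Among other genes of the IGF system, 1 of 11 tested (14 listed) passed, beside 15.5% of all tested genes. The median log2 fold change was 0.37. Igfbp7, whose product binds IGFs weakly, was at 60.7 and 60.6 CPM in the baicalein livers, against 47.0 and 46.7 CPM in the saline livers, and it rose (log2 fold change 0.37, SE 0.09, adjusted p = 0.0207). Igfbp3 encodes the carrier that joins IGF1 and the acid-labile subunit in blood, and it was at 79.8 and 53.5 CPM in the baicalein livers and 35.4 and 33.0 CPM in the saline livers. The baicalein livers were both higher but far apart, and Igfbp3 did not pass (log2 fold change 0.96, SE 0.22, adjusted p = 0.0645), though it did without baicalein 1, without baicalein 2 and with DESeq2. Igfbp1, an insulin-repressed binding protein gene, was at 109 and 83.6 CPM in the baicalein livers and 295 and 505 CPM in the saline livers, a wide gap that did not pass (log2 fold change -2.06, SE 0.38, adjusted p = 0.0802), though it was called lower without saline 1, without saline 2 and with DESeq2. The receptor gene Igf1r also missed the threshold (log2 fold change 1.20, SE 0.35, adjusted p = 0.0514) but passed with median-of-ratios size factors and with no filter. Igfbp4 missed it too (log2 fold change 0.37, SE 0.12, adjusted p = 0.0650) and passed with DESeq2 and without baicalein 2. Igfbp7 was not called without any 1 of the livers (adjusted p up to 0.149). The list had 0 higher and 1 lower without saline 1 or without saline 2, 2 higher and 0 lower without baicalein 2, and 3 higher and 1 lower with DESeq2. Igf2, Pappa and Pappa2 did not clear the filter.

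Of 17 liver transcription factor and corepressor genes tested, 5 were higher and 1 lower, beside 7.65% and 7.90% of all tested genes. The median log2 fold change was 0.15. Trim24 and Tox are known, like Cux2, as growth hormone-responsive factors enriched in female rodent liver. Trim24 was at 38.1 and 40.2 CPM in the baicalein livers, against 10.6 and 10.1 CPM in the saline livers, and it rose (log2 fold change 1.92, SE 0.12, adjusted p = 1.82e-05). Tox was at 17.9 and 14.4 CPM in the baicalein livers, against 2.12 and 2.26 CPM in the saline livers, and it rose (log2 fold change 2.88, SE 0.20, adjusted p = 4.35e-05). In both genes the livers of a group lay close together and the groups far apart, and both calls held under all 10 tested alternatives. Onecut1, encoding the growth hormone-induced factor HNF6, rose by 1.38 (SE 0.33) on the log2 scale, its relative Onecut2 by 0.65 (SE 0.11) and the glucocorticoid receptor gene Nr3c1 by 0.44 (SE 0.12). Cebpb, a factor of the acute phase response, fell (log2 fold change -0.83, SE 0.16, adjusted p = 0.0139). Hnf4a, a master regulator of hepatocytes, did not pass (log2 fold change 0.03, SE 0.11, adjusted p = 0.901), and its sign turned without baicalein 1 and without saline 1. Onecut1 and Nr3c1 were not called without baicalein 1, baicalein 2 or saline 1 (adjusted p up to 0.126 and 0.229), Onecut2 without baicalein 2 (0.0534) and Cebpb without saline 1 or saline 2 (up to 0.149), so 2 to 5 genes were higher with a liver left out.

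Further genes reported as STAT5 targets shared no direction, with 1 higher and 2 lower among 6 tested of 7 listed. Of all tested genes, 7.65% were higher and 7.90% lower. Gadd45g, a stress-response gene, had 48 and 84 counts in the baicalein livers, against 709 and 643 counts in the saline livers, and it fell (log2 fold change -3.55, SE 0.16, adjusted p = 2.61e-06). Nox4, encoding an NADPH oxidase, had 29 and 88 counts in the baicalein livers, against 238 and 247 counts in the saline livers, and it fell (log2 fold change -2.31, SE 0.44, adjusted p = 0.0463). The higher gene was Onecut1, also counted among the transcription factors. Its call was lost with the replicate block and in most fits with a liver left out. Nox4 was not called without saline 1, without saline 2 or with no filter on low counts (adjusted p up to 0.169), whereas Gadd45g was called under all 10 tested alternatives.

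Genes that mouse liver expresses by sex under growth hormone control also separated the groups. Of 20 female-biased genes 19 were higher with baicalein and Prom1 did not pass, except with DESeq2 and without baicalein 1. Of 18 male-biased genes 16 were lower. The shares over all tested genes were 7.65% higher and 7.90% lower. Mup20, a major urinary protein gene, was at 45.5 and 42.8 CPM in the baicalein livers, against 1633 and 3726 CPM in the saline livers, a wide gap (log2 fold change -5.92, SE 0.68) whose adjusted p missed the threshold only by rounding. Mup20 was called lower with median-of-ratios size factors, DESeq2 and limma-voom and without saline 1 or saline 2. It was not called with no filter, with the replicate block or without baicalein 1 or baicalein 2. Ihh did not pass (log2 fold change 0.06, SE 1.25, adjusted p = 0.982), and it was called lower without baicalein 2. Acot3, an acyl-CoA thioesterase gene, had 587 and 765 counts in the baicalein livers, against 5 and 5 counts in the saline livers. The transporter gene Slc22a26 had 2765 and 3894 counts in the baicalein livers, against 19 and 16 counts in the saline livers. Of the male-biased genes, Elovl3, a fatty acid elongase gene, had 37 and 39 counts in the baicalein livers, against 6739 and 5329 counts in the saline livers, and Hsd3b5, a steroid dehydrogenase gene, had 160 and 192 counts in the baicalein livers, against 6794 and 5989 counts in the saline livers. Cyp2a4, Mup7 and Cyp4a12b also led these lists and have near-identical relatives between which reads may be split. Each called axis member differed between the same livers as these lists and the Y-linked genes did, as any called gene must. The shared split therefore tells nothing about a cause, which was not tested.

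**Figure D5:**
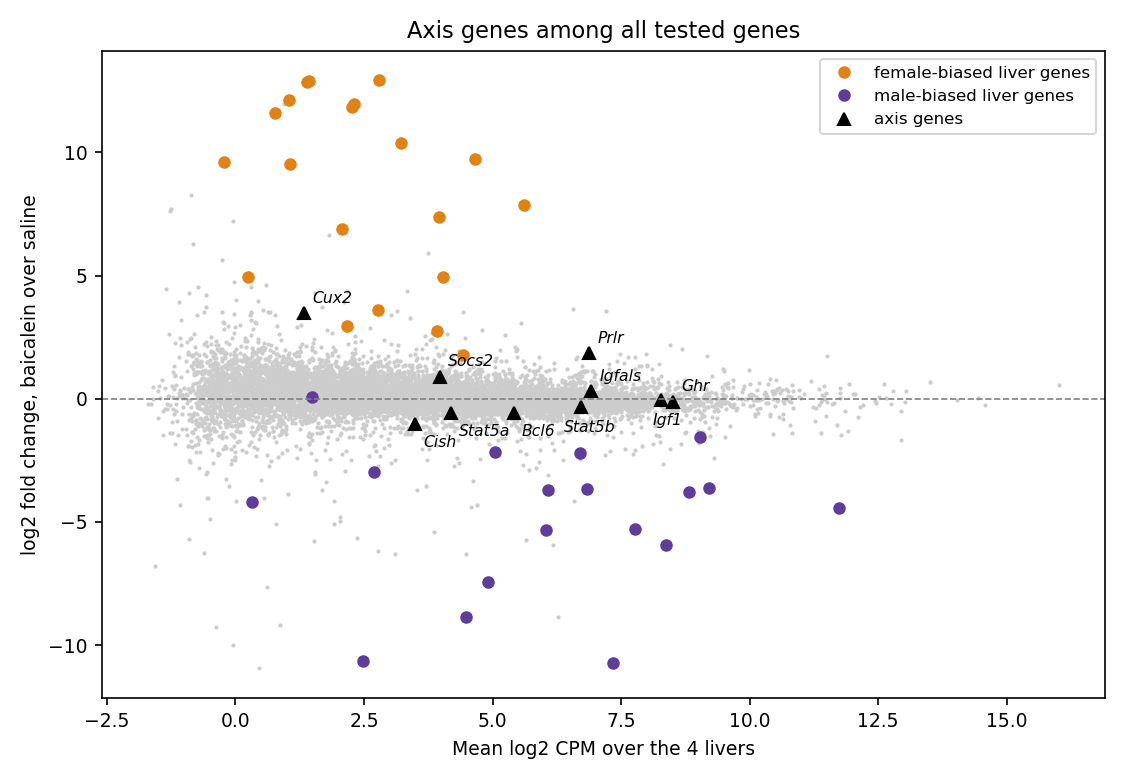
Log2 fold change (baicalein over saline) against mean log2 CPM for all 12657 tested genes (grey), with female-biased genes in orange, male-biased genes in purple and axis genes as black triangles; fitted values of genes with no count in a group depend on the prior count. Cux2 and Prlr lie highest of the axis genes, at 3.48 and 1.84, and Cish lowest, at -1.02.

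Likeness of pattern was measured as the distance between log2 values (CPM plus 0.5) over the 4 livers after centring, among 9385 other genes with a mean of at least 5 CPM. Nearest to Prlr were the peroxisomal transporter gene Abcd2 (distance 0.0860), the P450 gene Cyp2a5 (0.107) and the Kupffer cell scavenger receptor gene Marco (0.163). Nearest to Cux2 were the metallothionein gene Mt1 (0.163), Tox (0.214) and the clock gene Per3 (0.289). Cux2 was at 0.588 and 0.802 CPM in the saline livers, so the added 0.5 narrows its contrast. These neighbours had smaller log2 fold changes (2.80, 2.88 and 2.62, against 3.48 for Cux2). Within a distance of 1 there were 32 genes around Cux2 and 289 around Prlr, against 4505 to 8292 around the other 5 called members, whose neighbours are therefore little set apart. Those were Cyp2c68, Zfp629 and 2700097O09Rik for Socs2, Cyp2c67, Klf11 and Acot1 for Cish, and Spryd7, Clint1 and Tsc22d2 for Bcl6. They were Cox5a, Cdc34 and Fitm2 for Stat5a, and Mrps28, Dcaf8 and Kmo for Stat5b.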

How the data were processed

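RNA of 4 livers was sequenced. Per the labels' protocols, libraries came from total RNA with a SMARTER mRNA-Seq kit. The submitters' processing notes name mm10 as genome build, but gene positions in the table do not match it. The sources used here do not name the aligner or the counter. The authors deposited whole-number read counts and FPKM per gene in 1 table. For the members, FPKM equalled the count divided by gene length and library total to within 0.00387%.

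Genes were filtered with filterByExpr, which kept 12657 of 21959. Counts were normalised by TMM and compared, baicalein over saline, in a robust quasi-likelihood model (edgeR 4.0.16 under R 4.3.3) without covariates. Tests were two-sided with Benjamini-Hochberg adjustment. The common biological coefficient of variation was 0.289, and 1 count equalled 0.0499 to 0.0729 CPM. Alternatives were median-of-ratios size factors, DESeq2 1.42.0, limma-voom (limma 3.58.1), no filter, a replicate block and leaving out each liver. A block with crossed numbers and the pair of livers with almost no muscle RNA were added after seeing the data.

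The members and all lists were chosen with earlier results of these data known. Named genes are the members, the genes of smallest p in each list and the 3 nearest genes of each called member. For receptor signalling, the IGF system and liver transcription factors, all called genes are also named. Jak2, Hnf4a, Igfbp1, Plin4, Lpl and the exceptions of the sex-biased lists were named outside this rule, after their values were seen. A gene that this rule names is not reported here.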

Additional observations from a re-analysis of the deposited data

How the results depend on the processing

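As reported, 968 genes were higher and 1000 lower with baicalein. With a liver left out, 521 to 665 genes were higher and 535 to 663 lower, and 2 to 3 members were higher and 1 to 2 lower, in fits with fewer samples. Without baicalein 1 or 2, or saline 1 or 2, the lone liver of a group is assumed to vary like the pair of the other group. With the replicate number as a block, 531 genes were higher and 601 lower, with 2 members called in each direction, and Socs2, Stat5a and Stat5b were not called. The labels do not say that a number pairs livers, and deviations of same-numbered livers correlated at -0.77 over genes. A block with crossed numbers, added after seeing the data, called 1809 genes higher and 1689 lower, with 4 members in each direction. It pairs baicalein 1 with saline 2, the livers with almost no muscle RNA, and baicalein 2 with saline 1, those with muscle markers. It was thus not an arbitrary relabelling. Median-of-ratios size factors, DESeq2, limma-voom and no filter each called 3 members higher and 4 lower. Igf1 ran from -0.17 to 0.02 and Pparg from -0.50 to 0.15 in log2 fold change with a liver left out, changing sign without baicalein 2 and without saline 1. Hnf4a ran from -0.06 to 0.11 and Ihh from -2.25 to 0.89, and Ihh was also negative with limma-voom (-0.38), the block (-0.60) and the crossed block (-0.22), against 0.06 as reported. The cause was not tested. Cux2 rests on the fewest counts, 10 and 11 in the saline livers.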

Other observations

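Other class I cytokine receptors, the family of GHR and PRLR, were listed as 10 genes, of which 9 were tested. With baicalein 2 were higher and 1 was lower, beside 7.65% and 7.90% of all tested genes. Lepr, encoding the leptin receptor, was at 13.6 and 10.3 CPM in the baicalein livers, against 1.47 and 2.63 CPM in the saline livers, and it rose (edgeR log2 fold change 2.55, SE 0.32, adjusted p = 0.00186). Il6ra, encoding the interleukin 6 receptor, was at 86.2 and 71.1 CPM in the baicalein livers, against 31.3 and 38.3 CPM in the saline livers, and it rose (edgeR log2 fold change 1.18, SE 0.14, adjusted p = 0.00179). Both calls held under all 10 tested alternatives. Csf2rb, a shared receptor subunit gene of myeloid cells, fell (edgeR log2 fold change -0.65, SE 0.13, adjusted p = 0.0116). It was not called without baicalein 2 or saline 2 (adjusted p up to 0.102). Il6st, encoding the signalling partner of the interleukin 6 receptor, did not pass (edgeR log2 fold change 0.24, SE 0.10, adjusted p = 0.141).

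Of 6 tested lipid uptake and storage genes known to rise in mouse liver that lacks GHR or STAT5, 0 passed with edgeR. Over all tested genes edgeR called 15.5% in either direction. Of these 6 genes, 0 had an unadjusted edgeR p below 0.05, while DESeq2 called 1 higher, Vldlr. Plin4 had 14 and 212 counts in the baicalein livers and 169 and 30 counts in the saline livers. Lpl had 428 and 1314, and 986 and 596 counts. Both were highest in baicalein 2 and saline 1, the livers with muscle markers. Their wide spread (SE 1.75 and 0.57) leaves little room for a call, so the lack of one says little. Cd36, a fatty acid uptake gene, was at 26.1 and 39.5 CPM in the baicalein livers and 23.7 and 18.4 CPM in the saline livers (edgeR log2 fold change 0.64, SE 0.26, adjusted p = 0.204). It was called without baicalein 1, and Vldlr, a lipoprotein receptor gene, was called without saline 1 and without saline 2.

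Of the clock genes, whose difference cannot be told apart from an unlabelled hour of collection, those of smallest p were Per3, Dbp, Per2 and Tef, all higher with baicalein, with log2 fold changes of 2.62 (SE 0.13) for Per3, 2.09 (SE 0.11) for Dbp, 1.72 (SE 0.11) for Per2 and 1.39 (SE 0.12) for Tef.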
